A study of Caenorhabditis elegans with 2 samples.

Results

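The cuticle collagen family of Caenorhabditis elegans, taken as every protein-coding gene of the WBcel235 annotation whose name starts with col-, was examined for binding sites of LIN-32. The rule gave 156 of the 19973 protein-coding genes on the 6 nuclear chromosomes. The assay was ChIP-seq, the sequencing of DNA that co-precipitates with a protein from sonicated chromatin, here with an antibody to GFP. Both biological replicates were whole mixed-stage embryos of mixed sex, with a labelled age of 3 h, from strain OP740. Its transgene wgIs740 carries lin-32 fused to TY1, EGFP and 3xFLAG tags together with unc-119(+), in an unc-119 (tm4063) background. They form 1 group, obtained by egg bleaching. All cells of the embryo were pooled, so a site used in few cells cannot be told apart from a weakly bound one. The promoter behind the transgene is not given in the labels. The labels name no second condition, so the family was set beside all protein-coding genes.

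Cuticle collagens are the main structural proteins of the worm's exoskeleton. They are made by the epidermis, which builds a new cuticle at the end of embryogenesis and at each moult, and their chains carry long runs of Gly-Xaa-Yaa triplets that wind into a triple helix. LIN-32 is the Atonal-type proneural basic helix-loop-helix factor of the worm, known for its part in making sensory neurons. Such factors bind E-boxes, the hexamers written CANNTG, and Atonal-type factors favour CAGATG and CAGCTG. The collagens are a large epidermal family outside the neural lineage, and were chosen here for that reason.

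Of the 156 col- genes, 4 had a LIN-32 peak of the irreproducible discovery rate (IDR) set in their window, namely col-94, col-85, col-185 and col-54. The window covered 2000 bp before and 500 bp after each annotated 5′ end of a gene, and the IDR set held the 1042 peaks the authors kept as reproducible. The share was 2.56% of col- genes (95% exact binomial interval 0.703 to 6.43%), and 4.16% of all protein-coding genes had such a peak (831 of 19973, interval 3.89 to 4.45%). The value for all genes lay inside the interval of the family, so the family's share was not distinguishable from it. A gene with several 5′ ends has a longer window. Among genes with 1 distinct 5′ end the shares were 2.94% of col- genes (4 of 136, interval 0.807 to 7.36%) and 3.22% of all (467 of 14498). Intervals here cover counting error over genes or peaks only, and they treat these as independent, although neighbouring genes can share an entry. They do not cover variation between replicates, and read depth is unknown from peak lists. All 4 peaks lay at, or within 35 bp of, a gene for a transfer RNA (tRNA) or small nuclear RNA (snRNA), and none of the 4 held an E-box within 50 bp of its summit.

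The sequences at the summits of 2 of these peaks show this directly. Each is the 101 bases centred on the summit, read 5′ to 3′ on the strand of the col- gene from the RefSeq WBcel235 genome, and the capitals mark the bases that belong to the annotated tRNA gene. The sequence at col-85 is chrII:12494722-12494822 on the minus strand, and that at col-185 is chrX:13511927-13512027 on the minus strand.
col-85: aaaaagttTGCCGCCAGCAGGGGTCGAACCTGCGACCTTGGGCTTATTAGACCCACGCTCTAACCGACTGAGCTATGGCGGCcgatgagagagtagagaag
col-185: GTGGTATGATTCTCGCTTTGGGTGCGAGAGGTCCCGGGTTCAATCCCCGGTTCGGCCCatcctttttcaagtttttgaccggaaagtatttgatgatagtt
Of the 101 bases, 74 belong to the tRNA gene at col-85 and 58 to the tRNA gene at col-185.

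The strongest peak in a col- window had a signal of 303, a unit-free height given by the authors with their peaks, and ranked 79 in the IDR set. Its summit lay upstream of col-94 (chromosome III, 10986808 to 10987873, minus strand). It fell inside an annotated snRNA gene, outside coding sequence. The host of that snRNA gene is dhc-4, another protein-coding gene. The matching entries ranked 74 in replicate 1, with a signal of 160, and 91 in replicate 2, with a signal of 142. The replicates thus ranked it alike, as 1 of the 100 strongest entries of each list, an agreement for which the IDR set was selected. Their summits lay 1 bp (replicate 1) and 81 bp (replicate 2) from the pooled summit, and only the pooled summit was placed in the snRNA gene here.

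The col-85 peak ranked 91 in the IDR set with a signal of 288. Its summit at 12494772 lay 323 bp downstream of the 5′ end, within the span of col-85 itself (chromosome II, 12493703 to 12495095, minus strand) but outside its coding sequence. There it stood inside T21B4.t1, a gene for isoleucine tRNA on the opposite strand (12494741 to 12494814). It ranked 91 in replicate 1 (signal 145) and 89 in replicate 2 (signal 143). The col-185 peak ranked 346 with a signal of 156, and its summit at 13511977 lay 880 bp upstream of col-185 (chromosome X, 13510035 to 13511097, minus strand) inside H06A10.t1, a gene for proline tRNA (13511970 to 13512041). It ranked 350 in replicate 1 (signal 79.8) and 341 in replicate 2 (signal 81.2). The weakest of the 4, at col-54 (chromosome I, 5842709 to 5844050, plus strand), ranked 937 of 1042 with a signal of 97.0. Its summit at 5843048 lay 339 bp downstream of the 5′ end in coding sequence of col-54, and 35 bp from F33D11.t2, a gene for arginine tRNA (5843083 to 5843155). It ranked 966 in replicate 1 (signal 50.8) and 1013 in replicate 2 (signal 49.0).

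**Figure D1:**
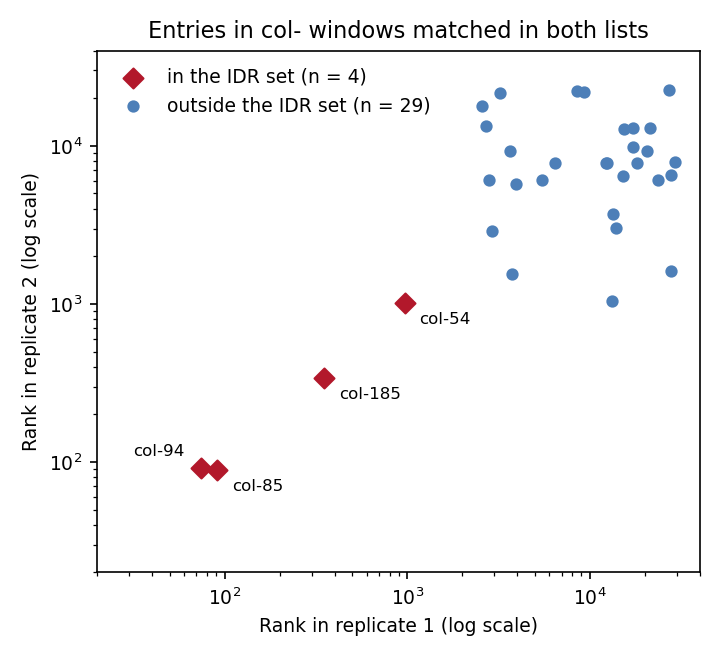
Rank of each pooled entry in a col- window in replicate 1 (x axis) and replicate 2 (y axis), both on log scales with 1 as the strongest, for the 33 entries with a summit within 100 bp in both replicate lists. The 4 entries of the IDR set, drawn as diamonds, lie near the diagonal, and the 29 others ranked no better than 2556 in replicate 1 and 1048 in replicate 2. The IDR set was kept for reproducibility, so the selection favours agreement of its entries without fixing it, and the 4 are no independent evidence of agreement.

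Small RNA genes stood in few col- windows. A tRNA or snRNA gene overlapped the window of 5 col- genes (3.21%, interval 1.05 to 7.32%), and of 335 protein-coding genes in all (1.68%, interval 1.5 to 1.87%). Of those 5 windows 4 held an IDR peak (80%, interval 28.4 to 99.5%), and of the 335 windows 104 did (31.0%, interval 26.1 to 36.3%), a value inside the family's interval. The fifth col- gene was col-155, with the snRNA gene K03B8.10 in its window, and its best pooled entry ranked 8478. Among the 151 col- genes with no tRNA or snRNA gene in the window 0 had an IDR peak, which allows a share of up to 1.99% by the limit of 3 counts (exact interval to 2.41%). Among all 19638 protein-coding genes without one, 727 had an IDR peak (3.70%, interval 3.44 to 3.98%). The split by small RNA genes was chosen after all 4 peaks had been seen to lie at such genes. The counts of 4 and of 0 thus follow from the split and are no evidence of an enrichment or a depletion. The part of the small RNA genes in the col- peaks was not tested.

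**Figure D2:**
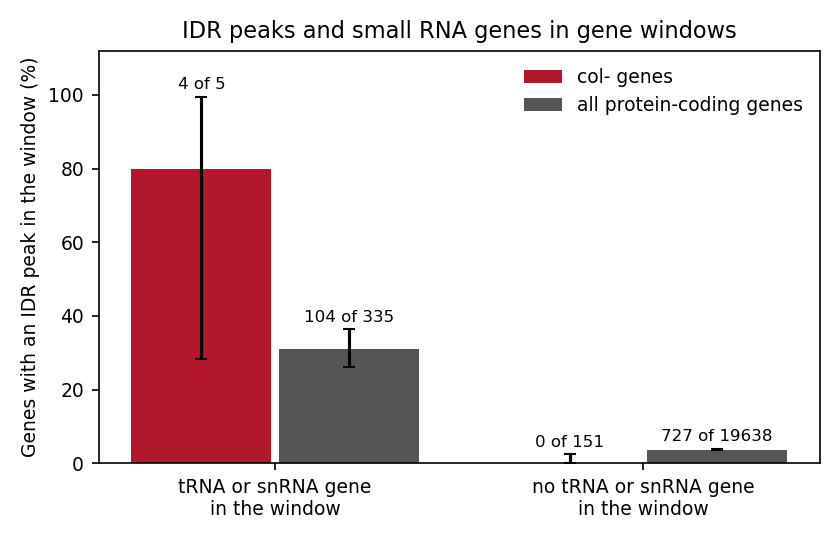
Percentage of genes with an IDR peak in the window (y axis), for genes with and without a tRNA or snRNA gene in the window, with col- genes left of all protein-coding genes in each pair. Bars are shares, error bars are exact 95% binomial intervals and the counts stand above them. A peak was held by 4 of 5 col- genes with such a neighbour and 0 of 151 without one. The split was chosen after the col- peaks had been seen to lie at such genes.

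Of the genes with an IDR peak, 4 of 4 col- genes had one within 500 bp of a tRNA or snRNA gene, beside 100 of 831 among all genes (12.0%). This measure too was chosen after the 4 peaks had been seen, so it is no evidence of an enrichment. None of the 4 col- peaks held any CANNTG hexamer within 50 bp of the summit, while 59.5% of the 1042 IDR peaks did, 38.7% of the 186 beside tRNA or snRNA genes and 64.0% of the 856 others. With 4 peaks the exact interval for the family reaches 60.2%, which takes in the value of the whole set.

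Reads from tRNA and snRNA genes can match several copies. Of the stretches of 31 bases in the col-94 peak 40.8% occur once in the nuclear genome, and the figure was 52.2% for the col-85 peak, 85.3% for col-185 and 83.9% for col-54. Over whole windows the median was 97.9% for col- genes and 99.6% for all protein-coding genes. A window is much longer than a peak, so these medians do not compare directly with the values of the peaks. The windows with the lowest values were those of col-3 (31.1%) and col-117 (32.1%), and neither held a pooled entry. Of the next lowest, col-93 (51.8%) and col-162 (61.1%) held none, while col-157 (56.5%) and col-52 (65.5%) held one or more. The median was 98.6% for the 88 col- genes with a pooled entry and 96.0% for the 68 without one.

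No other protein-coding gene had a 5′ end nearer to any of the 4 peaks. Across all protein-coding genes another gene was nearer in 280 of 876 pairs of a gene and an IDR peak (32.0%). When genes of every kind were counted, a non-coding gene was nearer in all 4 col- cases, and a gene of any kind was nearer in 498 of the 876 pairs (56.8%). Nearness of a 5′ end is a matter of position and does not tell which gene a site serves.

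Several col- genes lay close to an IDR peak without having it in their window. An IDR summit lay within 5000 bp of the 5′ end, on either side, of 14 col- genes, from 13 distinct peaks, and 9 of the 14 lay within 500 bp of a tRNA or snRNA gene. The peak beside col-181 ranked 43, with a signal of 366, and stood 1070 bp downstream of its 5′ end in a tRNA or snRNA gene, so it was nearer than the col-94 peak but on the side where the window ends at 500 bp. The first peak outside the upstream limit stood 2273 bp upstream of col-120, ranked 98, held CAGATG or CAGCTG within 50 bp of its summit and lay 203 bp from flh-1. A peak ranked 215 stood 2746 bp upstream of col-105, with no other protein-coding 5′ end nearer and the closest tRNA or snRNA gene 26245 bp away. A peak ranked 88 (signal 291) stood 3938 bp downstream of the 5′ end of col-99 within its span, 1 bp from a tRNA or snRNA gene. The median col- gene was 36188 bp from the nearest IDR summit, a distance that was not worked out for all protein-coding genes.

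The relaxed pooled list, in which the authors called 26004 entries on both replicates together, holds background as well as peaks, and it covered much of the family. An entry lay in the window of 88 of 156 col- genes (56.4%, interval 48.2 to 64.3%), beside 53.7% of all protein-coding genes (10732, interval 53.0 to 54.4%). Replicate 1's own list gave 58.3% of col- genes and 58.6% of all genes, and replicate 2's list gave 51.3% and 49.6%. Entries stood in all 3 relaxed lists for 58 col- genes (37.2%) and 7067 of all genes (35.4%), and in none of them for 42 col- genes (26.9%) and 5617 of all genes (28.1%). Each of these shares for the family is close to that of the genome's genes. Other cuts, which were not tested, differed more. Among genes with no other gene's 5′ end in the window, 62.4% of col- genes (58 of 93, interval 51.7 to 72.2%) and 50.5% of all had an entry. Among genes with one it was 47.6% (30 of 63, interval 34.9 to 60.6%) and 58.1%. An entry with no other 5′ end nearer was found for 49.4% of col- genes (interval 41.3 to 57.5%) and 41.1% of all. Counted along the chromosomes, 31.7 pooled entries fell per 100 kb of col- windows, 28.2 per 100 kb of all protein-coding windows and 25.9 per 100 kb of the nuclear genome.

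The ranks of these entries were spread over the whole list. Among the 88 col- genes with an entry the best rank had a median of 10845, with quartiles of 4286 and 17242, and among the 10732 protein-coding genes with one the median was 9789 (quartiles 3890 and 17015). An entry ranked 1000 or better was found for 2.56% of col- genes and 3.99% of all genes. At rank 2000 or better it was 4.49% of col- genes (7, interval 1.82 to 9.03%) and 7.71% of all. At 5000 it was 17.3% (27) and 16.1%, and at 10000 it was 25.6% (40) and 27.3%. The all-gene value lay inside the family's interval at each of these ranks. Most of the 88 genes, 56, had 1 entry, 26 had 2, and no col- gene had more than 4.

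**Figure D3:**
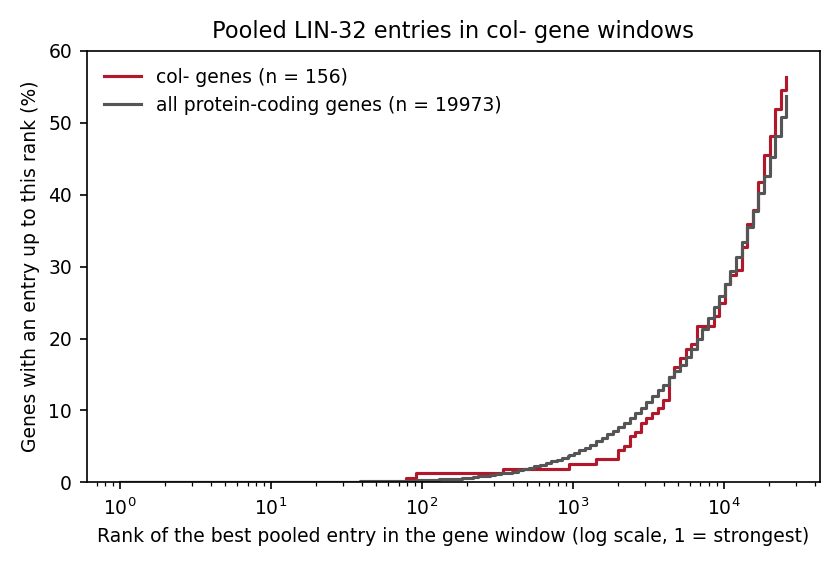
Cumulative percentage of genes (y axis) whose best pooled entry has at most the rank on the x axis (log scale, 1 = strongest), for the 156 col- genes and all 19973 protein-coding genes. The curves run close to each other and end at 56.4% and 53.7%, and the first steps of the col- curve are the col-94 and col-85 entries at ranks 79 and 91.

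The first col- gene outside the IDR set was col-88, with an entry of rank 1315 and signal 82.2 placed 1352 bp upstream, against rank 937 for col-54 as the last inside. That entry ranked 3733 in replicate 1 and 1537 in replicate 2. The entry of rank 1877 (signal 72.2) was shared by the neighbours col-79, where it lay 474 bp downstream of the 5′ end in coding sequence, and col-39, which it preceded by 829 bp. It ranked 2920 in replicate 1 and 2878 in replicate 2, and was the single col- entry outside the IDR set that stood among the 3000 strongest of both replicates. The col-71 entry (rank 2146) lay 128 bp from the 5′ end of Y49F6B.2 and 270 bp upstream of col-71, and it ranked 1048 in replicate 2 but 13251 in replicate 1. The col-130 entry (rank 2297) lay 495 bp downstream of the 5′ end and ranked 3934 in replicate 1 and 5779 in replicate 2. The col-63 entry (rank 2302) lay 43 bp downstream of the 5′ end and was matched in replicate 1 alone, at rank 17602. Of the 123 pooled entries in col- windows, 33 (26.8%, interval 19.2 to 35.6%) had a summit within 100 bp in both replicate lists, beside 30.6% of the 13175 entries in all protein-coding windows.

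Collagens known for particular stages or cells gave weak entries or none in their windows. The gene col-19, known for its adult expression, had no entry in any of the 3 relaxed lists. The near-identical neighbours col-12 and col-13 had none either, and 84.5% and 82.1% of the 31-base stretches in their windows were unique in the genome. The dauer collagen gene col-2 had 4 entries, the best of rank 3770, and that one lay 459 bp upstream of col-2 but 227 bp from the 5′ end of ndc-80, a kinetochore gene. It was matched in replicate 2, at rank 1561, and not in replicate 1. In the window of col-99 the best rank was 4638 at 1816 bp upstream, matched in replicate 1 alone at rank 21608. The IDR peak of rank 88 within the span of col-99 lay beyond that window. This gene encodes a transmembrane collagen known for its part in the nervous system and not in the cuticle. The name prefix therefore takes in at least 1 collagen that is not known as a cuticle component.

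A larger share of the family's pooled entries than of all genes' entries stood inside the gene, a difference that was described and not tested. In col- genes 44 of 128 pairs of a gene and a pooled entry (34.4%, interval 26.2 to 43.3%) had the summit downstream of the 5′ end, beside 21.9% of 16971 pairs over all protein-coding genes (interval 21.3 to 22.5%). Replicate 1's list gave 30.4% for col- genes (interval 22.5 to 39.3%) and 22.8% for all, and replicate 2's list gave 28.0% (interval 19.8 to 37.5%) and 21.4%. The direction was the same in both replicates, but in each of them taken alone the all-gene value lay inside the family's interval. Within the first 500 bp of the gene there were 28.2 pooled entries per 100 col- genes and 18.6 per 100 of all genes. In the 500 bp before the 5′ end there were 16.7 per 100 col- genes and 21.8 per 100 of all genes. Genes with a single distinct 5′ end, 136 of 156 col- genes and 72.6% of all, gave 24.3 and 13.9 per 100 genes for the first 500 bp of the gene, and 14 and 16.5 for the 500 bp before it. Pairs with the same gene or neighbouring genes are not independent.

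**Figure D4:**
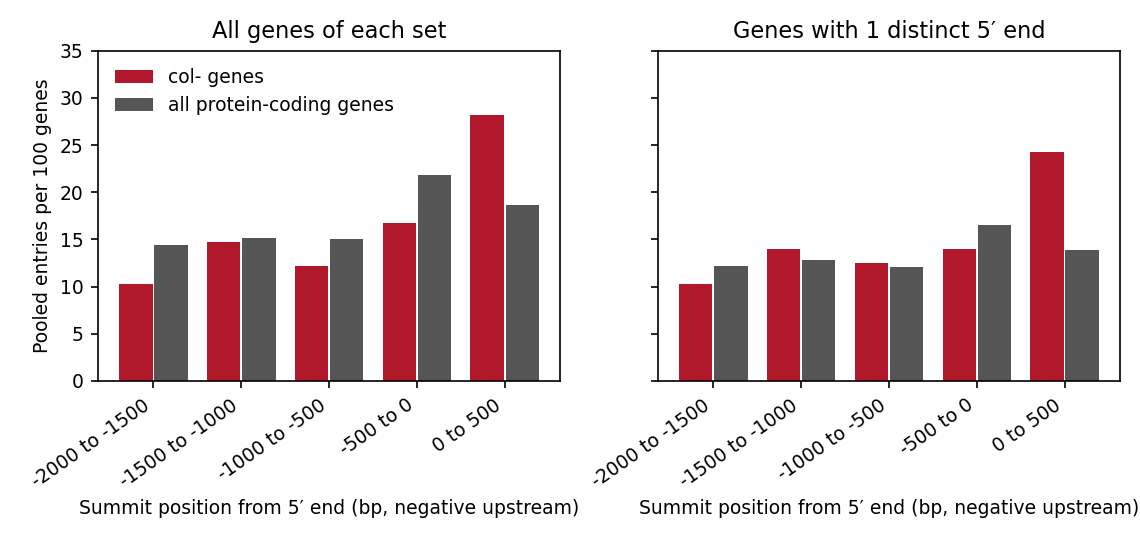
Pooled entries per 100 genes (y axis) by the position of the summit relative to the 5′ end in steps of 500 bp (x axis, negative upstream), for col- genes and all protein-coding genes, over all genes of each set (left) and genes with 1 distinct 5′ end (right). From 0 to 500 bp the col- bars reach 28.2 and 24.3, above 18.6 and 13.9 for all protein-coding genes.

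These downstream entries stood mostly in the coding sequence, and collagen coding sequence differs in composition. Of 44 downstream pairs, 32 had the summit in coding sequence of the col- gene itself. Of distinct downstream entries, 33 of 43 (76.7%, interval 61.4 to 88.2%) stood in any coding sequence. Over all protein-coding genes 2088 of 3681 did (56.7%, interval 55.1 to 58.3%), so a place in coding sequence was common there too. Over all 123 entries in col- windows 43.9% (interval 35 to 53.1%) had the summit in coding sequence, beside 28.7% in all protein-coding windows (interval 27.9 to 29.4%). The median GC content of coding sequence was 55.3% in col- genes (range 43.4 to 62.6%) and 42.5% in all protein-coding genes. Within 50 bp of the summit, downstream entries had a median GC content of 47.5% in col- windows and 42.6% in all windows, and upstream entries had 43.6% and 42.6%. The part of base composition in the position of the entries was not tested. The median rank of downstream entries was 13351 in col- windows and 13303 in all windows, and that of upstream entries was 14433 in col- windows and 12495 in all windows.

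Collagen coding sequence was also rich in Atonal-type hexamers. On both strands it held 1.79 CAGCTG per kb in col- genes (271 sites in 151 kb) and 0.368 per kb in all protein-coding genes. CAGATG stood at 1.14 per kb in col- genes and 0.741 per kb in all. CAGATG or CAGCTG stood no more than 50 bp from the summit in 20 of 123 entries in col- windows (16.3%, interval 10.2 to 24.0%) and in 10.3% of entries in all protein-coding windows (interval 9.74 to 10.8%). In 14 of those 20 entries the summit lay in the coding sequence of a col- gene. The summits of the col-79 and col-130 entries are shown because both stand in collagen coding sequence and hold these hexamers. Each is given as 101 bases on the strand of its gene, with every CANNTG in capitals. The first is chrII:10704037-10704137 on the plus strand and the second is chrIV:12427971-12428071 on the minus strand.
col-79: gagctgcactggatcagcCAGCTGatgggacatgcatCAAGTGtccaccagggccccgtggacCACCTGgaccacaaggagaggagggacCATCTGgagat
col-130: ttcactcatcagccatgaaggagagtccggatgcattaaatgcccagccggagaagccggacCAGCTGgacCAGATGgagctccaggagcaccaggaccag
CATCTG in the first is CAGATG on the opposite strand. A hexamer in such a stretch is a match of letters and not a measured site.

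The promoters of the family were set beside all others over the 300 bp from 250 bp before to 50 bp after the most upstream 5′ end. CAGATG or CAGCTG, searched on both strands, stood in 26.9% of col- promoters (42 of 156, interval 20.1 to 34.6%) and in 18.7% of all promoters. Any CANNTG stood in 72.4% of col- promoters and 69.4% of all. Of the 42 col- genes with CAGATG or CAGCTG in the promoter 27 had a pooled entry in the window (64.3%, interval 48.0 to 78.4%) and 1 had an IDR peak, while 61 of the 114 others had a pooled entry (53.5%, interval 43.9 to 62.9%). Those intervals overlap. Over all protein-coding genes the pooled share was 56.5% with such a hexamer in the promoter and 53.1% without, and 5.37% of those with one had an IDR peak. TATAAA, a form of the TATA box, stood on either strand in 66.0% of col- promoters (interval 58.0 to 73.4%) and in 37.9% of all, and GATAA, a core that GATA factors bind, in 62.2% and 57.6%. The median GC content was 38.0% in col- promoters and 34.3% in all promoters.

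No peak of the family lay on IV or V, the 2 chromosomes with the most col- genes. Chromosome IV holds 41 col- genes (26.3% of the family and 16.4% of all protein-coding genes) and 0 had an IDR peak, which allows up to 7.32%, where 3.54% of all genes on IV had one. On V, 0 of 31 col- genes had one, which allows up to 9.68%, where 2.04% of all genes did. With so few genes neither chromosome could show a depletion. Chromosomes I, II, III and X held 1 col- gene with a peak each, of 21, 24, 12 and 27, where 5.52%, 4.67%, 5.8% and 5.13% of all genes on those chromosomes had one. The pooled share ran from 35.5% of col- genes on V (45.1% of all genes there) to 83.3% on III (63.5%). The family is partly clustered, with another col- gene within 5000 bp for 50 of the 156, and 5 of the 123 pooled entries fell in the windows of more than 1 col- gene.

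Lists of other genes of the cuticle pathway held 0 or 1 gene with an IDR peak each, counts too small to set apart from the 4.16% of all genes. Of 20 cuticle collagen genes named for body shape mutants, such as dpy-7, rol-6, sqt-3 and bli-1, 0 had an IDR peak (up to 15% allowed) and 16 had a pooled entry (80%), with a median best rank of 13331. Of 15 genes that modify, process or cross-link collagen 1 had an IDR peak, pdi-2, which encodes a protein disulphide isomerase that is part of the enzyme hydroxylating collagen prolines. That peak (chromosome X, summit 4523987, signal 129) ranked 530 in the IDR set, 417 in replicate 1 and 827 in replicate 2, and lay 168 bp upstream of pdi-2 with the nearest tRNA gene 78902 bp away. Of 35 cuticlin-type genes named cut- or cutl- 1 had an IDR peak, cutl-28, at rank 540 and 1438 bp upstream, and this summit lay 4 bp from a tRNA gene and was matched in replicate 1 (rank 680) but not in replicate 2. No IDR peak lay in the windows of 10 epidermal transcription factor genes such as lin-26, elt-1 and nhr-25 (up to 30.0% allowed), 9 genes of the precuticle such as noah-1 and let-653 (up to 33.3%), or the collagen genes emb-9, let-2, cle-1 and mec-5, whose products are not cuticle collagens. Counts of 0 in lists of these sizes allow shares above that of all genes. A pooled entry lay in the window of 10 of the 15 collagen-modifying genes, 23 of the 35 cuticlin-type genes, 10 of the 10 epidermal transcription factor genes, 8 of the 9 precuticle genes and 3 of the 4 other collagen genes. Each of these lists had a pooled share above the 53.7% of all protein-coding genes, which was not tested. The lists were not matched to all genes in their number of 5′ ends. Among protein-coding genes with 1 distinct 5′ end the pooled share was lower, 48.7%.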

How the data were processed

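ChIP-seq of GFP-tagged LIN-32 was analysed from 4 peak lists. Per the deposited notes on file derivation, the authors called 1 list on each replicate and 1 on both together, against a shared control alignment, and derived the IDR set from those 3. Per the labels the build is ce11, which shares its coordinates with WBcel235. The sources used here do not name the aligner, the peak caller or the IDR threshold. The peak signal is the authors' deposited value and served to rank peaks within a list. Replicate 1 had 30000 entries and replicate 2 had 22618, of which 22601 were nuclear. Replicate 1's list ends at exactly that number, so low ranks do not compare between lists. Read depth is unknown.

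Summits (column 2 plus column 10, counted from 1) were placed on Ensembl release 115 genes, and sequence came from the RefSeq WBcel235 genome. Summits within 100 bp counted as matched. Unique 31-base stretches were counted on both strands without mismatches. No test was run: shares with exact 95% intervals stand beside those of all protein-coding genes, the family included. Members, lists and the rule for named genes were chosen with earlier results of these data known. Named genes are all col- genes with an IDR peak, the 10 with the best pooled rank, col-2, col-12, col-13, col-19 and col-99, and listed genes with an IDR peak. The genes col-3, col-117, col-93, col-162, col-157, col-52, col-155, col-181, col-120 and col-105 were added after seeing the values. So were the hexamer counts in coding sequence and the split by small RNA genes. The listed name elt-5 was not found. Assignment was tested on simulated peaks. Python 3.11.15, numpy 2.4.6, scipy 1.17.1, pandas 2.3.3 and matplotlib 3.10.9 were used. The sequence at the col-94 summit is not reported here.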

Additional observations from a re-analysis of the deposited data

How the results depend on the processing

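The share of col- genes with an IDR peak was 2.56%. It stayed inside its interval with the 521 strongest IDR peaks (1.92%), nearest 5′ ends (2.56%) and the window of 5000 bp upstream (5.13%, 8 genes). For each replicate alone, the 1042 strongest entries of its own list were used in place of the IDR set. The share was 2.56% with either list. It was 0.641% with the window from 1000 bp upstream to 200 bp downstream, 0.641% without peaks beside tRNA genes, and 0% without peaks beside tRNA or snRNA genes, which was added once the peaks had been seen to lie there and so could give no other value. The share of all protein-coding genes under these 3 settings was 2.79%, 3.71% and 3.67%. It was 6.93% with 5000 bp upstream, 2.85% with nearest 5′ ends and 2.09% with the 521 strongest peaks.

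The pooled share of col- genes, 56.4%, was 35.9% with the narrow window, 70.5% with the wide one, 17.3% with the 5000 strongest entries and 21.8% with entries matched in both replicates. All protein-coding genes gave 36.4%, 73.5%, 16.1% and 22.0%, and 41.1% with nearest 5′ ends, where col- genes gave 49.4%. Leaving out a replicate gave 51.3 to 58.3% for col- genes and 49.6 to 58.6% for all. The median best rank was 3029 with the 5000 strongest entries and 4281 with matched ones. Letting genes of any kind be nearer raised the share of col- peaks with another gene nearer to 100%. No value could be had for the nearer-gene share without peaks beside tRNA or snRNA genes, as no col- peak was left. No paired analysis was possible because there is 1 group. Peak lists without read counts limit all values to presence and rank.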
